A study of Mus musculus with 8 samples.

Results

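Genes with several coding transcripts were followed through 4 cultured mouse cell types. A gene was a member when the deposited transcript table listed at least 2 different coding RefSeq accessions for it, which are called isoforms here. This gave 2588 genes with 6371 isoforms, out of 14530 coding genes with 18313 coding accessions, so 17.8% of the coding genes were members. Of the members 1820 had 2 isoforms, 513 had 3, 159 had 4, 58 had 5 and 38 had 6 or more, with Hmga1 (14 isoforms), Gtf2ird1 and Tpm1 (10 each) at the top.

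Every cell type was of the C57BL/6 strain and had 1 RNA-seq library and 1 m6A-seq library. The embryonic stem cells (ESC, passage 14) and the induced pluripotent stem cells (iPSC, passage 22) were grown in the same medium with leukemia inhibitory factor. The neural stem cells (NSC, passage 16) came from fetal brain at E12.5 and were kept with EGF and bFGF, and the testicular Sertoli cells (SC, passage 2) were kept with serum. Expression was given as FPKM (fragments per kilobase of transcript, scaled to the mapped fragments), so isoforms of different length are compared per length. The m6A-seq was given as yes or no calls in 5 regions of each transcript. These are the coding sequence (CDS), the 5' and 3' untranslated regions (UTRs), and regions headed TcSS and TsTS. The abbreviations TcSS and TsTS come without a definition and are kept as written; TcSS stands before the 5' UTR and TsTS after the CDS in the table. With 1 library per cell type and assay, no difference below has a replicate check and no p-value is given. Neither pluripotent culture serves as a replicate of the other.

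A gene makes several mRNAs by starting transcription at another promoter, by joining other exons or by ending at another polyadenylation site. Isoforms may code for different proteins, or for the same protein under different UTRs, which act on translation, stability and location of the mRNA. N6-methyladenosine (m6A) is a methyl mark that a METTL3-METTL14 complex puts on adenosines of mRNA, often near stop codons and in long exons. A mark in an exon that only some isoforms contain belongs to those isoforms alone, while short reads over a shared exon cannot tell the isoforms apart.

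For 7 pairs of isoforms that recur below, the coding sequence is shown where they part, so that each change of leader or of call can be read as a change of a piece of mRNA. Lower case marks 12 bases that both isoforms have. Capitals mark 15 bases on the side where they differ, starting at the first different base for the isoforms of Zfp277, Sall4, Suz12, Map3k7 and Fxr1, and ending at the last different base for those of Ash2l and Set. The sequences are GENCODE M21 coding sequences of build GRCm38, matched by accession and read 5′ to 3′ on the strand of the gene.
Ash2l NM_001080793 (chromosome 8, 534 codons): atggatacccag
Ash2l NM_011791 (chromosome 8, 623 codons): GACACTTCAGAAGTGatggatacccag
Set NM_023871 (chromosome 2, 289 codons): CGGCCTGCCGAAGGGagaaaaagaaca
Set NM_001204875 (chromosome 2, 277 codons): GGCCGACGAGACCTCagaaaaagaaca
Zfp277 NM_172575 (chromosome 12, 583 codons): cagatcatgaagGACATCTGGGTTCTT
Zfp277 NM_178845 (chromosome 12, 457 codons): cagatcatgaagACAGTAAAGACTGTA
Sall4 NM_201396 (chromosome 2, 278 codons): gaggaacccggtCGTACCAGCCTCCCT
Sall4 NM_175303 (chromosome 2, 1067 codons): gaggaacccggtGCTCCAGTGAACTCC
Suz12 NM_001163018 (chromosome 11, 718 codons): aagcatcaaaagCTTGTCTGCACATTT
Suz12 NM_199196 (chromosome 11, 741 codons): aagcatcaaaagGAAAACATTTAAAGT
Map3k7 NM_009316 (chromosome 4, 606 codons): tggcgactgcagCCTATTCCAAGCCTA
Map3k7 NM_172688 (chromosome 4, 579 codons): tggcgactgcagGTAACGGGCAACCAA
Fxr1 NM_008053 (chromosome 3, 539 codons): agaatgggctagGCAAAAGATGTGATT
Fxr1 NM_001113189 (chromosome 3, 621 codons): agaatgggctagTCACAGTTGCAGATT
The short Ash2l isoform starts at a start codon that lies inside the coding sequence of the long one, so it has no capitals. The Set isoforms begin with different coding bases and then run together. The other 5 pairs share their start codon and part further on.

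How the isoforms of all members differ was read from the same annotation. For 2107 of the 2588 genes (81.4%) each isoform had a matched transcript of its own. Among these genes, 48.8% had isoforms that all started within 100 bases of each other, and 34.8% shared the whole 5' UTR. The start codon was common to all isoforms in 74.3% and the stop codon in 75.7% of the genes. The entire coding sequence was common to all in 22.1%, and the 3' UTR in 43.7%. The deposited table was made on build mm9, so the transcripts are compared by length and by same or different, and no coordinates are given.

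The cell type labels were checked against marker genes, by the summed FPKM of each gene's coding transcripts. The median of 9 pluripotent markers was 167 FPKM in ESC and 232 in iPSC, with 0.0221 in NSC and 0.0761 in SC. The 9 measured Sertoli markers had a median of 106 FPKM in SC, with all above 1 FPKM, and of 0.615 FPKM or less in the other cell types. In NSC the neural markers Pax6 (15.4 FPKM), Sox2 (14.3), Prom1 (13.9) and Nes (9.10) were present, while Fabp7 (0.380) and Olig2 (0.0631) were low and Sox1 was listed at 0. Several of these were higher outside NSC: Nes had 85.9 FPKM in SC, Sox2 84.6 in ESC and 119 in iPSC, Fabp7 4.73 in SC, and Olig2 9.76 in ESC and 5.30 in iPSC. Of the named neural markers Pax6 and Prom1 were highest in NSC, at most 0.710 FPKM elsewhere. Markers of fibroblasts and myoid cells had a median of 27.9 FPKM in SC, against 2.68 in iPSC, 0.0706 in NSC and 0.0336 in ESC; among them Acta2 stood at 1795 FPKM in SC and 18.8 FPKM in iPSC, and 2 of the 9 measured were under 1 FPKM in SC. The part of such cells in the isoform differences of SC was not tested. In such bulk samples, fewer cells with an isoform and less of it per cell cannot be told apart.

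Shares are given per library: the FPKM of an isoform divided by the summed FPKM of all coding isoforms of its gene, so the scaling of the libraries does not enter. A gene was examined in a cell type when this sum reached 5 FPKM, which held for 1321 members in ESC and 1408 in iPSC, and 1833 in NSC and 1912 in SC. The limit was reached by 2216 members in at least 1 cell type, by 1063 in all 4, and by 372 in none. Intervals are exact (Clopper-Pearson) 95% binomial intervals and cover counting error over genes only.

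Most members were dominated by 1 isoform, but seldom fully. The leading isoform, the one with the highest share, held a median of 80.4% of the gene's FPKM in ESC and 76.0% in iPSC, with 76.0% in NSC and 76.7% in SC. A share of 90% or more was reached in 33.2% of the genes in ESC (95% interval 30.6 to 35.8) and 25.5% in iPSC (23.2 to 27.9). It was reached in 25.8% in NSC (23.8 to 27.9) and 28.0% in SC (26.03 to 30.1). ESC stood highest, and over the 1063 genes examined in all 4 cell types the order began the same way, with 33.0% in ESC and 27.9% in iPSC, and 28.1% in NSC and 28.4% in SC. Over these common genes, however, the interval of ESC (30.2 to 35.9) overlapped those of iPSC (25.3 to 30.7), NSC (25.4 to 30.9) and SC (25.7 to 31.2). A second isoform held over 10% in 64.5% of the genes in ESC and 72.5% in iPSC, with 72.3% in NSC and 70.0% in SC. Among the 1063 genes, 659 (62.0%) had the same leading isoform in every cell type, 366 had 2 leaders, 34 had 3 and 4 had a different leader in each.

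An isoform switch was counted when the leading isoform differed between a pair of cell types and both leaders changed their share by at least 25 percentage points. The share of genes with a switch was highest for ESC with NSC and for ESC with SC, and lowest for iPSC with NSC. Between ESC and iPSC, 154 of 1172 genes switched (13.1%, 95% interval 11.3 to 15.2). The count was 207 of 1186 between ESC and NSC (17.5%, 15.3 to 19.7) and 201 of 1207 between ESC and SC (16.7%, 14.6 to 18.9). Between iPSC and NSC it was 106 of 1297 (8.17%, 6.74 to 9.80), and its interval lies below those of the other 5 pairs. The pair of iPSC and SC had 170 of 1291 (13.2%) and that of NSC and SC 190 of 1616 (11.8%). Over the 1063 common genes the shares were 13.4% for ESC with iPSC, 17.2% for ESC with NSC, 16.7% for ESC with SC, 7.43% for iPSC with NSC, 12.7% for iPSC with SC and 10.9% for NSC with SC. There the interval of iPSC with NSC (5.93 to 9.18) overlapped that of NSC with SC (9.10 to 12.9) and lay below the rest.

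Of the 1063 genes, 333 (31.3%) switched in at least 1 pair. In 57 of them ESC alone led with another isoform by this rule, switching against iPSC, NSC and SC, while those 3 did not switch among themselves. The same pattern was seen for SC in 26 genes, for NSC in 9 and for iPSC in 6. Both pluripotent cell types switched against both differentiated ones, with no switch inside either side, in 18 genes. The comparisons share libraries (the ESC library enters 3 of the 6), so these counts are not independent of each other.

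In its switches, ESC mostly led with the shorter transcript. Where both leaders had a matched transcript, the ESC leader was shorter than the iPSC leader in 94 of 121 switches (77.7%, 95% interval 69.2 to 84.8). It was shorter than the NSC leader in 127 of 165 (77.0%) and shorter than the SC leader in 113 of 156 (72.4%). In the pairs without ESC the shares lay nearer to an even split. The iPSC leader was shorter in 44 of 83 switches with NSC (53.0%, 41.7 to 64.1) and in 63 of 143 with SC (44.1%, 35.8 to 52.6). The NSC leader was shorter in 60 of 152 switches with SC (39.5%, 31.7 to 47.7). SC thus led with the shorter transcript in 92 of the 152 switches with NSC, so a skew to shorter leaders was not particular to ESC. The part of transcript length in these switches was not tested. Of the switches between ESC and iPSC with matched transcripts, 43 of 121 left the coding sequence the same and 66 had transcription starts over 100 bases apart.

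**Figure D1:**
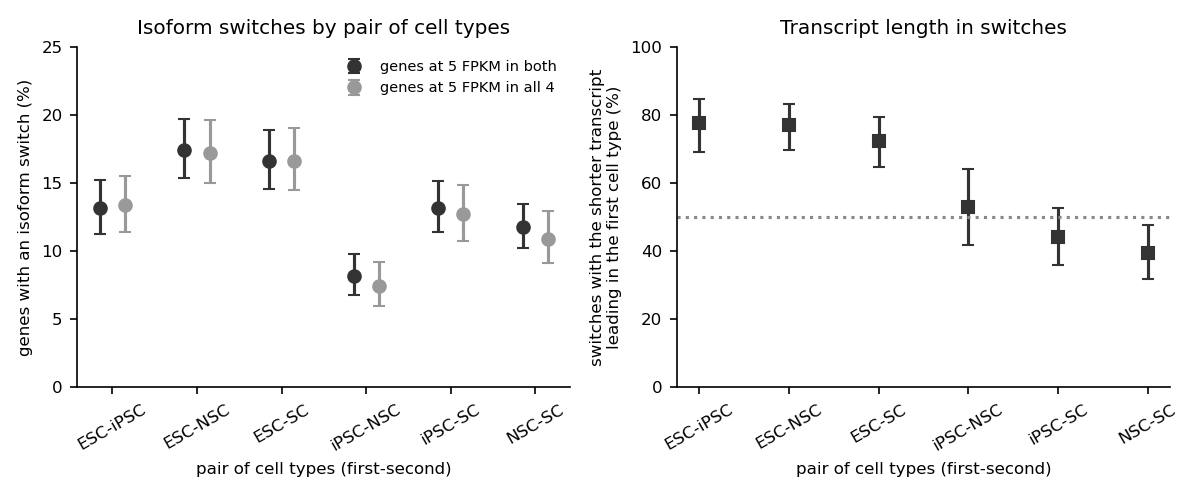
Left, the percentage of genes with an isoform switch in each pair of cell types, for genes at 5 FPKM in both (black) and in all 4 cell types (grey); right, the percentage of switches in which the first cell type of the pair leads with the shorter transcript. Bars are exact 95% binomial intervals over genes, the dotted line marks 50%, and the pairs with ESC lie between 72.4% and 77.7% on the right.

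Genes of the pluripotency network and of chromatin were among the switches that set ESC apart from iPSC. Sall4 codes for a zinc finger factor needed for pluripotency. Its short isoform NM_201396 stood at 55.9 FPKM in ESC and 0.0925 FPKM in iPSC, and its full-length isoform NM_175303 at 7.61 FPKM in ESC and 22.7 FPKM in iPSC. The short form thus made up 87.7% of the gene in ESC and 0.395% in iPSC, while the gene was below the limit in NSC and SC. As the sequences above show, the isoforms part early, and the short one codes for 278 amino acids in place of 1067.

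Suz12, a core subunit of the Polycomb repressive complex PRC2, led with different splice forms too. NM_001163018, with 1 exon fewer, had 16.4 FPKM in ESC and 5.46 in iPSC, and 4.07 in NSC and 6.65 in SC. The longer NM_199196 had 4.41 FPKM in ESC, 46.2 in iPSC and 19.1 in NSC and was listed at 0 in SC. The shorter form led in ESC (78.8%) and SC (100% of a low sum), the longer in iPSC (89.4%) and NSC (82.4%).
Mtf2, a factor that recruits PRC2, had 75.5% of its FPKM on NM_001253880 in ESC (37.3 FPKM), against 1.04% in iPSC (0.512 FPKM). In iPSC the leader was NM_013827, with 67.1% (33.0 FPKM). The Mtf2 accessions had no matched transcript of their own, so how they differ is not given.

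Dnmt3a, a de novo DNA methyltransferase, was 1 of the 6 genes in which iPSC stood alone. Its short form NM_153743, known as Dnmt3a2 and made from an inner promoter, had 0.511 FPKM in ESC and 17.8 in iPSC, with 1.03 in NSC and 4.87 in SC. The full-length NM_007872 had 6.73 FPKM in ESC and 11.4 in iPSC, and 9.54 in NSC and 16.7 in SC. The short form thus held 60.8% in iPSC and between 7.06% and 22.6% in the other 3 cell types.

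Genes of the nuclear lamina and of growth factor signalling led with another form in ESC than in the other cell types, and a gene of Wnt signalling and adhesion did so against iPSC. Lmna codes for the A-type lamins of the nuclear lamina. NM_019390, its shortest form with 462 codons, held 65.3% in ESC (17.6 FPKM), 20.6% in iPSC, 10.7% in NSC and 8.67% in SC. NM_001111102 with 574 codons had 2.79% in ESC and led elsewhere, with 58.6% in iPSC, 54.5% in NSC and 49.2% in SC. For the growth factor receptor gene Fgfr1, NM_001079909 held 53.5% in ESC, against 0.573% in iPSC and 6.51% in NSC, with 27.1% in SC. Ctnnb1 codes for beta-catenin, the effector of canonical Wnt signalling, and its isoforms code for the same 781 amino acids. The form with the shorter UTRs, NM_001165902, had 53.2 FPKM in ESC and 80.3 in iPSC, with 110 in NSC and 137 in SC. The form with the longer UTRs, NM_007614, had 4.31 FPKM in ESC and 101, 102 and 91.5 in iPSC, NSC and SC, so its share was 7.50% in ESC and 40.03% to 55.8% elsewhere. NM_001165902 led in ESC, NSC and SC (92.5%, 51.9% and 60.0%), and NM_007614 in iPSC alone.

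Some switches rested on values listed at 0, and such a 0 does not show that the isoform was absent. For the ribosomal protein gene Rpl34, NM_001005859 had 873 FPKM in ESC and 351 in SC, while iPSC and NSC listed it at 0. NM_026724, with the same protein and a longer 5' UTR, stayed between 29.2 and 48.9 FPKM in all 4 cell types. Without genes in which a leader is listed at 0, the switch counts were 142 of 1160 for ESC with iPSC, 187 of 1164 for ESC with NSC, 177 of 1182 for ESC with SC, 101 of 1292 for iPSC with NSC, 155 of 1276 for iPSC with SC and 178 of 1603 for NSC with SC.

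**Figure D2:**
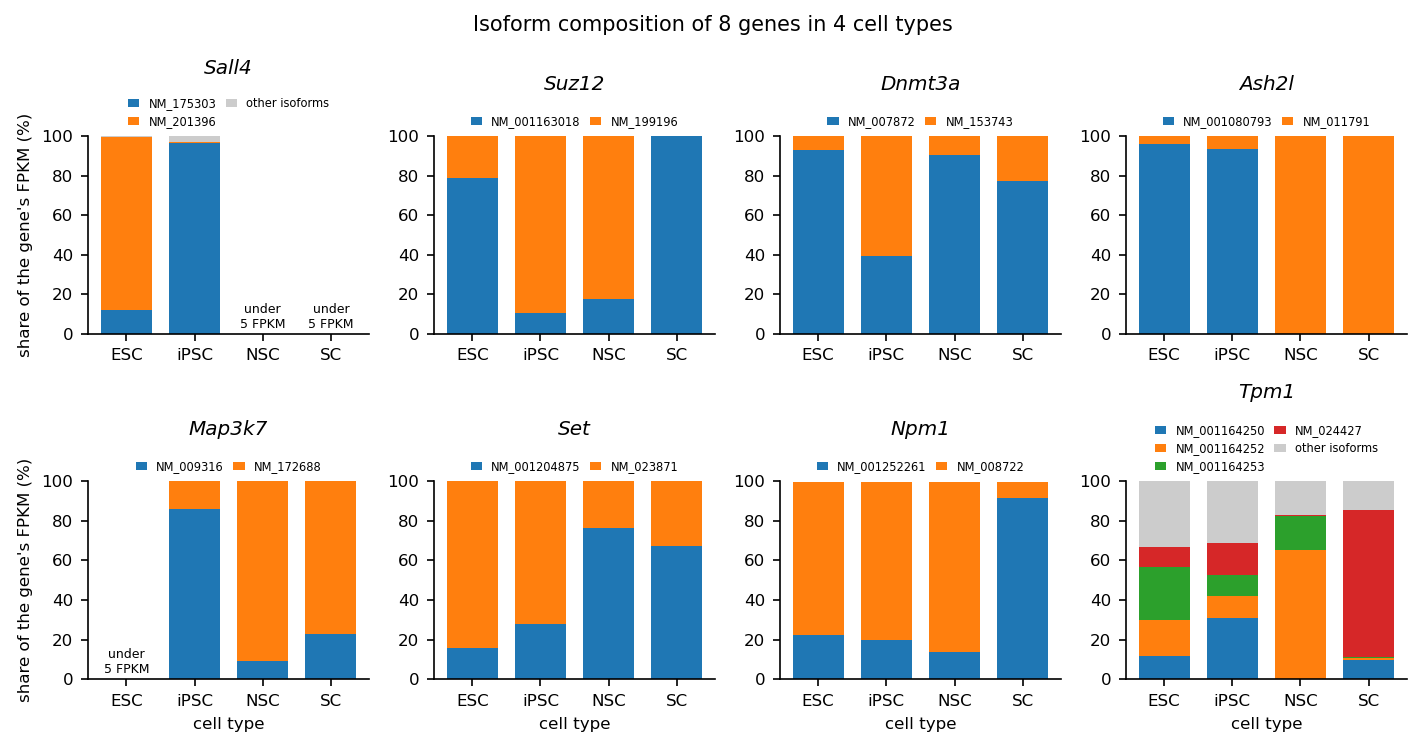
Share of each isoform in the gene's summed coding FPKM (percent, stacked bars) for 8 genes in ESC, iPSC, NSC and SC; isoforms that reach 15% in no cell type are joined in grey, and cell types where the gene is under 5 FPKM carry that note and no bar. Each bar is 1 library: Sall4 and Suz12 change leader between ESC and iPSC, Dnmt3a in iPSC, Ash2l and Set between the pluripotent and differentiated cells, and Npm1 in SC and Tpm1 in NSC and SC.

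A stricter contrast asked which isoforms had a share at least 25 points higher, or lower, in both pluripotent cell types than in both differentiated ones. This held for 38 of the 1063 genes (3.57%). In 25 genes a higher and a lower isoform both passed, in 7 a higher one only and in 6 a lower one only. Ash2l showed the widest gap of the 38. It codes for a shared subunit of the MLL and SET1 complexes that methylate histone H3 at lysine 4. NM_001080793 had 74.7 FPKM in ESC and 119 in iPSC and was listed at 0 in NSC and SC. NM_011791 had 3.33 FPKM in ESC and 8.17 in iPSC, and 31.8 in NSC and 39.3 in SC. The shares of NM_001080793 were 95.7% and 93.6% in the pluripotent cells, and the protein from its later start codon is the shorter one (534 against 623 amino acids). In ESC the CDS was called on NM_011791 alone; in NSC and SC it was called on both, although NM_001080793 was listed at 0 there.

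Jade1, a PHD finger subunit of HBO1 histone acetyltransferase complexes, kept its coding sequence and changed its untranslated regions. NM_001130184 had 13.9 FPKM in ESC and 46.8 in iPSC, with 0.752 in NSC and 5.36 in SC, which made 98.8%, 98.2%, 6.48% and 22.2% of the gene. The other 3 isoforms code for the same 834 amino acids; together they led in NSC and SC, where none of them passed 45.4%.
Rbpj is the DNA-binding partner of the Notch receptors. NM_001080928 had 12.9 FPKM in ESC, 56.0 in iPSC and 0.393 in NSC and was listed at 0 in SC, while NM_001080927 had 4.42 FPKM in ESC and 4.22 in iPSC, and 34.7 in NSC and 18.6 in SC. These isoforms begin with different first exons and code for 485 and 487 amino acids.

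Set, a histone chaperone and inhibitor of the phosphatase PP2A, was the most abundant of the 10 genes drawn in the plot of pluripotent gaps. NM_023871 had 404 FPKM in ESC and 241 in iPSC, with 33.8 in NSC and 32.7 in SC. NM_001204875 stayed within a narrower range, with 73.9 FPKM in ESC and 93.7 in iPSC, and 110 in NSC and 67.3 in SC. In Smpd4, a neutral sphingomyelinase gene, the form NM_001164610 with 19 exons held 96.9% in ESC and 87.0% in iPSC, with 37.2% in NSC and 41.0% in SC. Fut8, which makes the core fucose of N-glycans, had 99.9% and 97.1% on NM_001252616 in ESC and iPSC, against 45.7% and 50.6% in NSC and SC. In Scarb1, the receptor for high-density lipoprotein, NM_001205082 held 84.5% and 80.3% in ESC and iPSC, against 29.9% and 20.1% in NSC and SC.

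**Figure D3:**
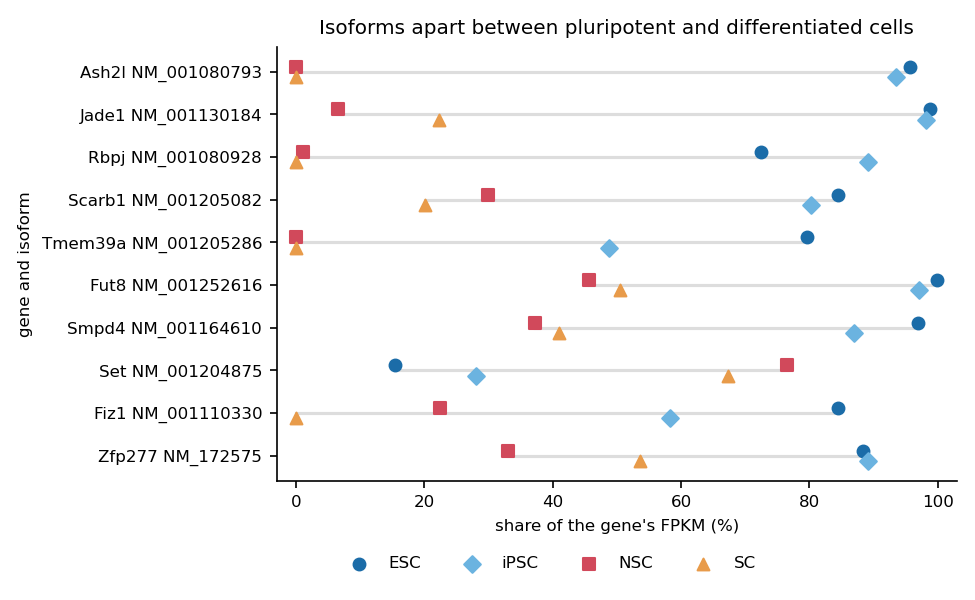
Share of 1 isoform in its gene's summed coding FPKM (percent, horizontal axis) in ESC, iPSC, NSC and SC for the 10 genes with the widest gap between pluripotent and differentiated cells at 10 FPKM or more in all 4. Each point is 1 library; Ash2l runs from 0 in NSC and SC to 95.7% in ESC, and Set is drawn by the isoform that is lower in the pluripotent cells.

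SC led with an isoform of its own in genes of the nucleolus, the cytoskeleton and secretion. Npm1 codes for nucleophosmin, an abundant nucleolar protein. NM_008722 had 895 FPKM in ESC and 1019 in iPSC, and 734 in NSC and 39.5 in SC. NM_001252261 had 258 FPKM in ESC and 255 in iPSC, with 116 in NSC and 427 in SC, so it held 91.4% in SC and at most 22.3% elsewhere. Tpm1, a tropomyosin that coats actin filaments, had 10 isoforms. Its form NM_024427 with 284 codons had 3.91 FPKM in ESC and 10.1 in iPSC, and 0.128 in NSC and 1896 in SC, which is 74.7% of the gene in SC. In NSC the leader was NM_001164252 with 248 codons, at 65.1% (50.2 FPKM). Tpm1 is high in smooth muscle and fibroblasts, whose markers were high in the SC library, and the part of such cells in this value was not tested. Tfg, a gene of protein export from the endoplasmic reticulum, had 77.2% on NM_001252443 in SC (111 FPKM), against 31.6% in ESC, 0.00511% in iPSC and 0.0307% in NSC.

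NSC led alone in genes of growth control and splicing. Srsf1 is a splicing factor. Its short form NM_001078167 (201 codons) had 3.69 FPKM in ESC and 15.3 in iPSC, with 39.1 in NSC and 2.69 in SC, which made 9.83%, 15.9%, 54.4% and 6.84% of the gene. Cdkn2a makes the cell cycle inhibitors p16INK4A and p19ARF from separate first exons. The p19ARF transcript NM_009877 had 43.0 FPKM in ESC and 7.89 in iPSC, and 2.62 in NSC and 66.5 in SC. The p16INK4A transcript NM_001040654 had 0.587 FPKM in ESC and 1.40 in iPSC, with 2.66 in NSC and 21.8 in SC, so its share was highest in NSC, with 50.4%. The change of leader in NSC is between nearly equal levels.

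Other pairs of cell types shared a leader. Map3k7, the kinase TAK1 of inflammatory and TGF-beta signalling, had NM_009316 at 10.3 FPKM in iPSC (85.8%), 1.35 in NSC (9.12%) and 4.20 in SC (22.9%). NM_172688, with 1 exon fewer, had 1.70 FPKM in iPSC, 13.5 in NSC and 14.1 in SC; the gene was just under the limit in ESC, with a sum of 4.77 FPKM. Hnrnpa1, an RNA-binding protein of splicing, had 171 FPKM of NM_010447 in ESC, 182 in iPSC and 363 in NSC, while SC listed it at 0. NM_001039129, with 373 codons in place of 320, had 173 FPKM in ESC and 65.5 in iPSC, and 126 in NSC and 69.6 in SC. Pfkm, the muscle-type phosphofructokinase of glycolysis, had 3 isoforms with 1 coding sequence and a leader for each setting: NM_021514 in ESC (65.3%), NM_001163487 in iPSC and NSC (59.6% and 97.4%) and NM_001163488 in SC (79.2%).

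By gene list, switches were counted among members at 5 FPKM in all 4 cell types, beside 333 of 1063 (31.3%) over all such members. The chromatin list had 9 of 19, the pluripotency and reprogramming list 3 of 6, and the cytoskeleton list 6 of 14. The list of splicing and RNA-binding factors had 8 of 28, signalling and matrix 3 of 11, metabolic enzymes 3 of 13, and cell cycle and apoptosis 2 of 8. For splicing that follows the epithelial-mesenchymal transition the count was 2 of 6, for neural genes 2 of 3, for imprinted genes 0 of 2 and for the m6A machinery 0 of 4; of the Sertoli and gonad list no member was examined in all 4. The median range of an isoform's share over the 4 cell types was 23.2 points over the 1063 members. It was 68.4 points in the neural list, 35.3 in the epithelial-mesenchymal list, 32.4 in the chromatin list, 28.7 in the imprinted list and 27.8 in the pluripotency list. The cytoskeleton list had 21.6 points, splicing factors 21.2, signalling and matrix 16.4, metabolic enzymes 15.5, the m6A machinery 13.8 and cell cycle genes 9.99. Lists this small are described and not compared.

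The genes of the m6A machinery had 6 members. Wtap, a regulatory subunit of the methyltransferase complex, had its long form NM_001113533 at 23.04 FPKM in ESC and 26.3 in iPSC, with 20.5 in NSC and 30.1 in SC, and it led in all 4 with 67.8% to 81.1%. Ythdf3, a reader of the mark, was the only switch in this list, and was below the limit in ESC. Its form NM_172677 had 5.08 FPKM in iPSC (28.8%) and 17.2 FPKM in NSC (72.3%), against 0.000189 FPKM in SC.

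In most called genes every isoform carried an m6A call in some region. At least 1 isoform was called in any region in 990 of 1321 members in ESC (74.9%) and 1060 of 1408 in iPSC (75.3%). The count was 1154 of 1833 in NSC (63.0%) and 1441 of 1912 in SC (75.4%). Over all coding genes at 5 FPKM the same shares were 75.2% in ESC and 71.7% in iPSC, and 60.8% in NSC and 72.6% in SC. In 96 of the 990 called genes in ESC another isoform had no call at all (9.70%, 95% interval 7.93 to 11.7). The iPSC calls were split in this way in 97 genes (9.15%, 7.48 to 11.05), the NSC calls in 76 (6.59%, 5.22 to 8.17) and the SC calls in 90 (6.25%, 5.05 to 7.62).

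Within single regions the calls were split far more often at the 5' end than in the coding sequence. In the TcSS, called in 23.6% of members in ESC and 18.3% in iPSC, with 16.7% in NSC and 16.8% in SC, the calls were split in 42.0%, 47.5%, 48.9% and 44.2% of the called genes. In the 5' UTR, called in 7.42%, 9.66%, 11% and 8.58% of members in the same order, they were split in 53.1% (52 of 98), 68 of 136 genes, 52.2% (105 of 201) and 51.2% (84 of 164). In the CDS, called in 49.3%, 52.8%, 49.2% and 56.8%, they were split in 12.1%, 9.14%, 8.09% and 9.67%. Among members the CDS was thus called often and seldom split, while the 5' UTR was called seldom and often split. Shares over all coding genes are given above for any region only. How often each region was called is therefore not read as particular to members. In the TsTS, called in 54.5%, 52.3%, 41.3% and 51.3%, they were split in 13.3%, 16.3%, 15.6% and 14.2%. In the 3' UTR, called in 33.8%, 40.3%, 32.7% and 28.5%, they were split in 20.9%, 20.4%, 18.9% and 21.3%. By this share the order was 5' UTR, TcSS, 3' UTR, TsTS and CDS in all 4 cell types, and the intervals of the 5' UTR and the TcSS overlapped in each.

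Splits were more frequent where the isoforms differ in the annotated region. Short reads over a shared region cannot tell its isoforms apart, so this contrast was largely set by the annotation. It is no test of methylation that differs between isoforms. In the TsTS the calls were split in 51.1% of called genes in ESC and 59.2% in iPSC, and 53.8% in NSC and 52.6% in SC when the isoforms had different stop codons. With 1 stop codon for all isoforms they were split in 4 of 435 genes in ESC (0.920%) and 5 of 449 in iPSC (1.11%), and likewise in 5 of 439 in NSC (1.14%) and 6 of 604 in SC (0.993%). In the 3' UTR the shares were 28.6% to 33.2% where the 3' UTRs differed, and 0% to 0.709% where they were the same. For the CDS they were 9.86% to 14.3% with different coding sequences and 0.524% to 2.61% with the same one. The TcSS calls were split in 64.3% to 72.2% of genes whose isoforms started over 100 bases apart and in 14.4% to 28.3% of those that started closer. Where the whole 5' UTR was the same, TcSS calls were split in 1 of 85 genes in ESC and 0 of 57 in iPSC, with 5 of 69 in NSC and 2 of 80 in SC.

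**Figure D4:**
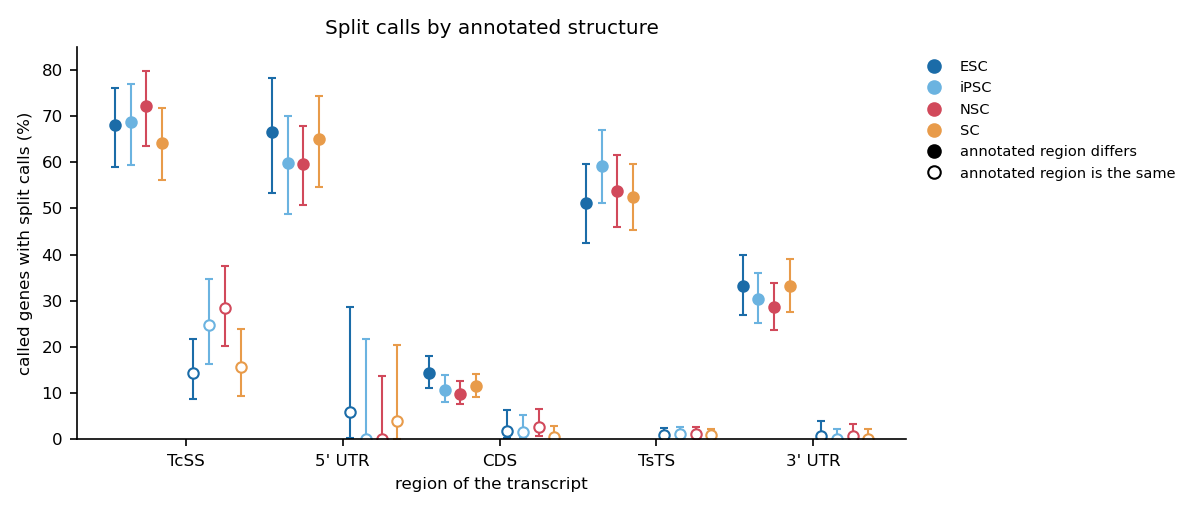
Percentage of called genes whose calls are split between isoforms, by region, for genes whose isoforms differ in that annotated region (filled) and share it (open), in ESC, iPSC, NSC and SC. For the TcSS the region is taken as the same when transcription starts lie within 100 bases, and for the TsTS when the stop codon is the same; bars are exact 95% binomial intervals over genes.

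The called isoform was usually the longer one in that region. A call in bases that only the longer isoform has can fall on that isoform alone. This pattern was therefore largely set by the annotation and is no test of methylation that differs between isoforms. Among 2-isoform genes with split 5' UTR calls and matched transcripts, the called isoform had the longer 5' UTR in 21 of 22 genes in ESC and 29 of 30 in iPSC, and 45 of 49 in NSC and 36 of 40 in SC. With split CDS calls it had the longer coding sequence in 34 of 39, 27 of 31, 32 of 36 and 48 of 52. With split 3' UTR calls it had the longer 3' UTR in 29 of 42, 43 of 57, 42 of 55 and 43 of 52. The level of the called isoform differed by region. In the 5' UTR the called isoform was the less abundant one more often than not, with the higher FPKM in 7 of 23, 12 of 31, 22 of 52 and 14 of 42. The 95% intervals of these shares were 13.2% to 52.9%, 21.85% to 57.8%, 28.7% to 56.8% and 19.6% to 49.5%. In the TcSS the called isoform was the more abundant one in 50 of 67, 42 of 58, 47 of 81 and 53 of 73 genes. In the TsTS this held for 33 of 46, 46 of 65, 39 of 63 and 53 of 73. In the CDS the called isoform was the more abundant one in 31 of 43, 28 of 35, 25 of 39 and 37 of 55 genes, and in the 3' UTR in 35 of 45, 46 of 63, 44 of 59 and 39 of 57. Outside the 5' UTR the intervals lay above an even split in ESC, iPSC and SC. In NSC those of the TcSS (46.5% to 68.9%), the TsTS (48.8% to 73.9%) and the CDS (47.2% to 78.8%) included it.

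Where a gene had split calls in the same region in both cell types of a pair, the same isoforms were called in most cases. Splits were more frequent where the annotated region differs, and the annotation is the same for every cell type. Such agreement is therefore no test of isoform methylation that is kept between cell types. Summed over the 6 pairs this held for 296 of 315 cases in the 3' UTR (94.0%), 157 of 177 in the CDS (88.7%), 135 of 156 in the 5' UTR (86.5%), 249 of 295 in the TsTS (84.4%) and 165 of 237 in the TcSS (69.6%); a gene may count in several pairs. By pair, over all regions, it was 194 of 214 for ESC with SC (90.7%) and 214 of 235 for iPSC with NSC (91.1%). The other 4 pairs lay lower, with 171 of 203 for ESC with iPSC (84.2%), 133 of 161 for ESC with NSC (82.6%), 144 of 184 for iPSC with SC (78.3%) and 146 of 183 for NSC with SC (79.8%).

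Single genes show such splits. Fxr1 codes for an RNA-binding protein of the fragile X family. The TsTS of NM_008053 was called in iPSC and SC, and in no cell type was the TsTS of the other Fxr1 isoforms called. NM_008053 skips an exon, which begins with the capitals shown above for NM_001113189, and ends at another stop codon. The other isoforms had a CDS call in iPSC and SC, and NM_008053 had one in SC. It had 32.4 FPKM in ESC and 40.4 in iPSC, with 52.1 in NSC and 49.8 in SC, so it was present without a call in ESC and NSC. Zfp277, a zinc finger gene from the pluripotent contrast, had a CDS call on NM_172575 alone in ESC and iPSC, where it stood at 15.9 and 12.5 FPKM. In NSC and SC it stood at 6.62 and 7.17 FPKM with no call, and NM_178845 was called nowhere. The level of NM_178845 was 2.11 FPKM in ESC and 1.52 in iPSC, with 13.4 in NSC and 6.22 in SC.

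Calls near the start of the transcript were split in other genes. Smarcd2, a subunit of SWI/SNF chromatin remodelling complexes, had a TcSS call on NM_001130187 in ESC, iPSC and SC and none on NM_031878. The called form had 5.38 FPKM in ESC and 5.36 in iPSC, with 41.2 in NSC and 16.4 in SC, against 25.8, 6.03, 59.8 and 10.2 for the other. In Stag2, a cohesin subunit on the X chromosome, NM_001077712 carried TcSS calls in ESC, iPSC and SC, and 5' UTR calls in ESC and SC; NM_021465, with the same 1231 codons, carried none. NM_001077712 held 21.4% of Stag2 in iPSC, against 10.6% in NSC, with 87.8% in SC; the gene was under the limit in ESC. Ctnnb1 had TcSS calls on NM_001165902 alone in all 4 cell types, and 5' UTR calls on NM_007614 alone in ESC and SC. Dlgap4, a scaffold protein of synapses, had 5' UTR calls on NM_001042488 alone in all 4. That isoform had 29.8 FPKM in ESC and 6.03 in iPSC, with 7.65 in NSC and 43.3 in SC.

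Split calls on abundant genes sat on the rarer form in some cases and on the leading form in others. Gpx4, which reduces lipid peroxides, had a TcSS call in ESC on NM_001037741 (10.7 FPKM) and none on NM_008162 (1294 FPKM). The TsTS of Npm1 was called on NM_001252261 alone in ESC and SC, where this form stood at 258 and 427 FPKM. For Hnrnpab, an RNA-binding protein whose isoforms share the stop codon and differ in coding and 3' UTR exons, the TsTS call was on NM_001048061 alone in iPSC, on both in NSC and on NM_010448 alone in SC. Both forms were abundant throughout, NM_001048061 with 81.5 to 170 FPKM and NM_010448 with 74.4 to 258 FPKM. In Pou5f1, the gene of OCT4, both forms had TcSS and CDS calls in ESC, where NM_013633 stood at 602 FPKM and NM_001252452 at 449. In iPSC the CDS call was on NM_013633 alone (554 FPKM), while the TsTS was called on both, although NM_001252452 had 2.15 FPKM.

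By any region, leading and minor isoforms of a gene were called about equally often. Short reads over a shared region cannot tell its isoforms apart, so this likeness was largely set by the annotation. It is no test of methylation by the level of an isoform. Leading isoforms were called in any region in 73.3% of cases in ESC and 73.3% in iPSC, with 61.3% in NSC and 74.2% in SC. Minor isoforms of the same genes were called in 71.9%, 72.7%, 61.1% and 73.3%. Even minor isoforms listed at 0 FPKM were called in 82 of 127 cases in ESC (64.6%, 95% interval 55.6 to 72.8) and 51 of 77 in iPSC (66.2%), and in 61 of 101 in NSC (60.4%) and 107 of 166 in SC (64.5%). Where another isoform of the gene was called, these were called too in 82 of 88 cases in ESC and 51 of 52 in iPSC, and 61 of 63 in NSC and 107 of 114 in SC. Under the same condition leading isoforms were called in 97.7%, 97.2%, 97.3% and 98.4% in ESC, iPSC, NSC and SC. Minor isoforms as a whole were then called in 93.8%, 94.8%, 96.2% and 95.9%. The 95% intervals of leading and minor isoforms lay apart in ESC, iPSC and SC and overlapped in NSC. They count isoforms, and several of these share a gene.

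Members were set beside the 11942 coding genes with 1 isoform. At 5 FPKM or more, members had a call in 74.9% and the others in 75.2% in ESC, a difference of -0.306 points (95% Newcombe interval -2.98 to 2.26). In iPSC it was 75.3% and 70.8%, a difference of 4.51 points (1.89 to 7.02). In NSC it was 63.0% and 60.1% (2.82 points, 0.287 to 5.31) and in SC 75.4% and 71.8% (3.57 points, 1.33 to 5.74). Those values count a call on any isoform. By the call of the leading isoform alone, which gives each gene 1 transcript, the differences were -1.97 points in ESC (-4.69 to 0.643) and 2.52 in iPSC (-0.142 to 5.09), with 1.18 in NSC (-1.36 to 3.69) and 2.37 in SC (0.101 to 4.57). The intervals of iPSC and NSC then included 0. By level, the gap was widest among the most abundant genes. At 50 FPKM or more it was 76.4% of members and 71.7% of the others in ESC (4.77 points, -1.53 to 10.4), 67.0% and 51.9% in iPSC (15.1 points, 7.83 to 21.8), 52.2% and 37.2% in NSC (15.02 points, 8.14 to 21.8) and 74.7% and 65.8% in SC (8.94 points, 4.68 to 12.9). By the call of any isoform, in each of the 3 lower bands, from 5 to 10, 10 to 20 and 20 to 50 FPKM, every interval of the difference included 0 in all 4 cell types. Ribosomal protein genes made up 1.41% to 3.31% of the members and 3.55% to 8.22% of the others at 50 FPKM or more. Without them the differences in this band were 3.41 points in ESC (-2.91 to 9.03) and 14.1 in iPSC (6.76 to 20.9), with 13.4 in NSC (6.36 to 20.3) and 8.20 in SC (3.94 to 12.2). A member counted as called when any of its isoforms was, so it had more transcripts on which a call could fall. By the call of its leading isoform alone, the difference in this band was 1.88 points in ESC (-4.57 to 7.75) and 11.9 in iPSC (4.54 to 18.8), with 10.6 in NSC (3.82 to 17.5) and 7.17 in SC (2.86 to 11.2).

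**Figure D5:**
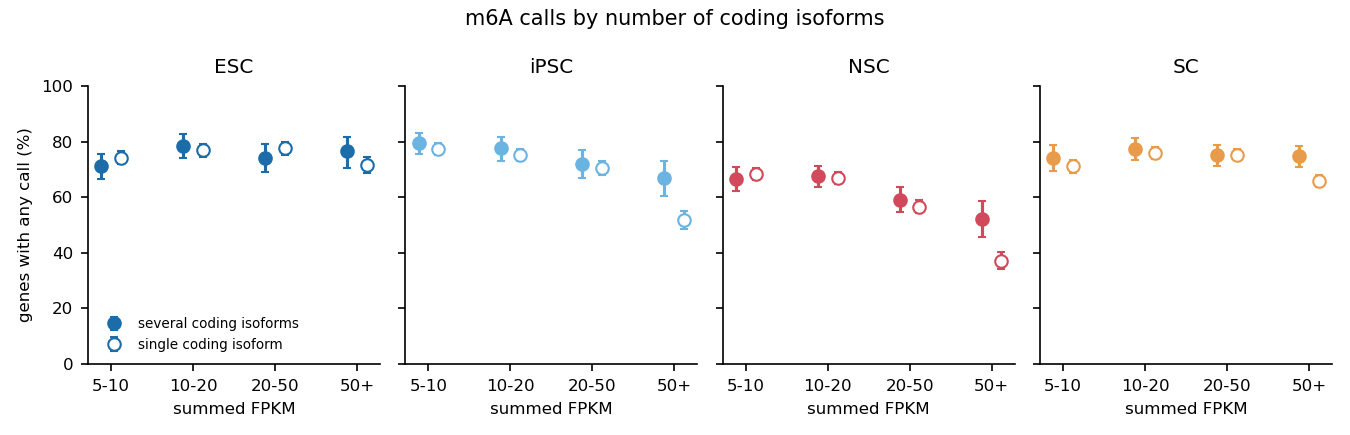
Percentage of genes with an m6A call in any region, by band of summed FPKM, for genes with several coding isoforms (filled) and with a single one (open) in ESC, iPSC, NSC and SC. Bars are exact 95% binomial intervals over genes. At 50 FPKM or more the bars of the groups lie apart in iPSC (67.0% and 51.9%), NSC (52.2% and 37.2%) and SC (74.7% and 65.8%). They overlap in ESC (76.4% and 71.7%).

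At the limit of 5 FPKM, the call of a gene differed between cell types about as often with an isoform switch as without, within wide intervals. Between ESC and iPSC the call of the gene differed in 14.3% of 154 genes with a switch and 16.2% of 1018 without, a difference of -1.92 points (95% interval -7.16 to 4.82). Between ESC and NSC it was 27.5% and 25.6% (1.90 points, -4.41 to 8.87), and between ESC and SC 14.4% and 13.8% (0.611 points, -4.16 to 6.48). For iPSC with NSC it was 20.8% and 20.99% (-0.236 points, -7.29 to 8.72), for iPSC with SC 17.6% and 15.3% (2.39 points, -3.08 to 9.12) and for NSC with SC 27.9% and 23.1% (4.75 points, -1.56 to 11.8). Each interval includes 0 and also differences of over 4 points in the direction of more changes with a switch. At a lower limit of 1 FPKM the difference was 6 points for iPSC with SC (1.26 to 11.3) and 8.92 points for NSC with SC (3.42 to 14.8), so both intervals then lay above 0, while those of the other 4 pairs included it.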

How the data were processed

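The authors deposited 1 table with 19776 transcript lines. Per the file headers it holds FPKM values of the RNA-seq and region calls (1 for modified, 0 for unmodified) of the m6A-seq. Build mm9 and the tools Cufflinks 2.0.2, TopHat2 2.0.4 and CASAVA are named by the submitters' processing notes, while the peak caller is not given in the sources used here. Read depth is unknown, so no detection floor is given.

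Accessions were named through a RefSeq table of GRCm38.p6 (19446 lines) and GENCODE M21 (104); 226 had no name. Numbered lines of an accession were joined (FPKM summed). Of 18578 coding lines 167 had no gene. Structures and sequences came from GENCODE M21, leaving out transcripts shared by several accessions. Genes were named by rule: the largest switches of each pair, the widest pluripotent gaps, the most abundant split calls, the most isoforms and members of 12 lists. Members, rules and lists were chosen with earlier results of these data known. The counting of switches and of split calls was tested on simulated data with Python 3.11.15, pandas 2.3.3 and scipy 1.17.1. Alternatives changed the FPKM limit, the share change, the leading share and the genes included. No column of the table was left out, and with 1 library per group no test was run.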

Additional observations from a re-analysis of the deposited data

How the results depend on the processing

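No paired analysis was possible because each cell type has 1 library per assay and no replicate numbers. Recomputing the values of the comparisons under the alternatives left 134 close to the reported ones and moved 41, where close means within 1.5 times for a count and within the reported interval for a share or difference. These counts leave out the split calls of single regions, of which 97 values stayed close and 3 moved. Switch counts follow the limits set. In the order ESC with iPSC, ESC with NSC, ESC with SC, iPSC with NSC, iPSC with SC and NSC with SC they were 351, 419, 397, 193, 300 and 292 at a limit of 1 FPKM, 47, 61, 61, 19, 45 and 60 at 20 FPKM, and 46, 69, 59, 22, 43 and 45 when a change of 50 points was asked. At 10 points they were 185 for iPSC with NSC and 305 for NSC with SC. The pair of iPSC and NSC had the fewest under each of these settings. Genes apart between pluripotent and differentiated cells numbered 75 at 1 FPKM, 4 at 20 FPKM, 7 at 50 points and 123 at 10 points. A leading share of 80% was reached by 50.6% of genes in ESC and 44.0% in iPSC, with 43.5% in NSC and 43.8% in SC. At a limit of 20 FPKM the share at 90% was 29.7% in iPSC. With the genes whose isoforms each have a matched transcript, a setting chosen after seeing the data, it was 36.2% in ESC. Leading and minor isoforms were called in 70.2% and 68.2% in ESC and in 70.9% and 70.0% in SC at 1 FPKM, and in 66.7% and 69.8% in iPSC and 54.1% and 56.7% in NSC at 20 FPKM. Minor isoforms at 1 FPKM or more were called in 73.9% in ESC. At 20 FPKM the members' excess of calls over genes with 1 isoform was 7.44 points in NSC, and the difference with a switch between ESC and NSC was -4.79 points (interval -15.2 to 8.16). The cause of these moves was not tested beyond the smaller or larger set of genes. The values without ribosomal protein genes, and those by the leading isoform at 50 FPKM or more, were also chosen after seeing the data.

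Short fragments resolve isoforms only where these differ, the table gives no error for an FPKM, and the matched transcripts come from a later annotation than the files. Depth is unknown, so an uncalled region cannot be told from an undetected one.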
